A study of Mus musculus with 37 samples.

Results

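The tailbud of the mouse embryo is the growth zone from which the trunk and tail are laid down, and it was compared here between the latest and the earliest control embryos of a somite series. Of 37 tailbud RNA-seq libraries, each from 1 embryo, 15 were control embryos of the outer stages: 7 with 10 or 11 somites (4 and 3 embryos) and 8 with 6 or 7 somites (4 and 4 embryos). They were chosen from the labelled genotype and somite number alone. All control embryos were Smchd1 fl/+ (labelled wild-type), of strain C57BL/6/Cast F1 at E8-8.5, and came from Smchd1 fl/fl mothers without the Cre transgene of the MMTV-Cre model and Cast fathers. The tailbud was cut below the last segmented somite, so that each library held the whole mix of cells caudal to the cut. A further 6 control embryos with 8 or 9 somites were used to place intermediate levels, and 12 Smchd1 del/+ embryos (labelled maternally deleted, from oocytes lacking Smchd1) with 6 or 7 somites (7 embryos) and 10 or 11 somites (5 embryos) gave the same comparison in embryos that the control contrast did not use. Their mothers were Smchd1 del/fl and carried the MMTV-Cre transgene, which deleted Smchd1 in the oocyte, and their fathers were Cast.

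Axial progenitors in the tailbud self-renew under Wnt and FGF signals while their descendants leave to form neural tube and presomitic mesoderm, the tissue from which somites bud in time with a Notch-driven clock. Hox genes are switched on one after another along each cluster, from the anterior paralogues to the posterior, and give each new level of the axis its identity. Gdf11, a TGF-beta family ligand, later ends trunk formation and starts the tail. Blood islands, vessels, gut and the visceral endoderm of the yolk sac lie close to this tissue, so that their RNA can enter a dissected piece.

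Library totals ran from 3061180 to 15477208 counts in the 8 early embryos and from 8477528 to 16943859 counts in the 7 late embryos. In the 12 maternally deleted embryos they ran from 916444 to 30156555 counts. The sexes were uneven by stage, with 4 of 4 females at 6 somites, 1 of 4 at 7 somites, 3 of 4 at 10 somites and 2 of 3 at 11 somites, and sex was therefore a term of the test. Values are given as CPM, the reads of a gene per 1e6 counts of its library after TMM scaling, and a gene was called where the adjusted p of edgeR's quasi-likelihood test was under 0.05. T (brachyury), the transcription factor of the caudal progenitors, read 188 to 312 CPM in the early embryos and 100 to 362 CPM in the late embryos. Msgn1, a regulator of presomitic mesoderm, read 23.5 to 65.2 and 14.3 to 62.5 CPM, whereas Meox1 of formed somites stayed at or below 6.45 CPM and the crest markers Sox10 and Foxd3 at or below 0.12 CPM. T and Msgn1 were thus read in each of the 15 libraries, and both were lowest in replicate 1 at 10 somites. Other members of the somite and crest lists read higher, with Foxc1 from 7.80 to 25.3 CPM and Ets1 from 18.2 to 64.6 CPM. One library stood apart. In replicate 1 at 10 somites the summed CPM of the visceral endoderm list was 5360, against 91.1 to 863 in the other 6 late embryos and 773 to 4580 in the early embryos, and that of the primitive erythroid list was 4070. In the same library the presomitic mesoderm list summed to 361 CPM against 593 to 836, and the streak and neuromesodermal progenitor list to 966 CPM against 1550 to 2190. Counts of calls in a list are given with and without this library for most of the lists described.

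Between 6-7 and 10-11 somites, 323 of 14510 genes tested rose (2.23%) and 225 fell (1.55%), 548 in all (3.78%), and 17.8% were past an unadjusted p of 0.05. Without replicate 1 at 10 somites the counts were 977 higher (6.68%) and 1128 lower (7.71%) of 14636 genes (14.4% in all, and 28.7% at an unadjusted p under 0.05), and all 548 genes called with it were called without it. The genes of cholesterol synthesis and the Hox genes of paralogue groups 8 and 9 rose most often as groups, followed by blood and endothelial markers, Notch targets and trunk-to-tail timing genes. The streak factor Cdx1, the Nodal co-receptor Cfc1 and its nuclear partner Foxh1, the pluripotency factor Pou5f1 and the FGF target Etv4 fell. So did markers of neurons and gut endoderm and 3 genes of the Wnt response and feedback list, in which 1 gene rose. Cell cycle, ribosomal protein, Polycomb, presomitic mesoderm and neural plate lists had no member past the threshold with all 15 embryos in the test. In bulk tissue, fewer cells of a type and less RNA per cell cannot be told apart.

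**Figure D1:**
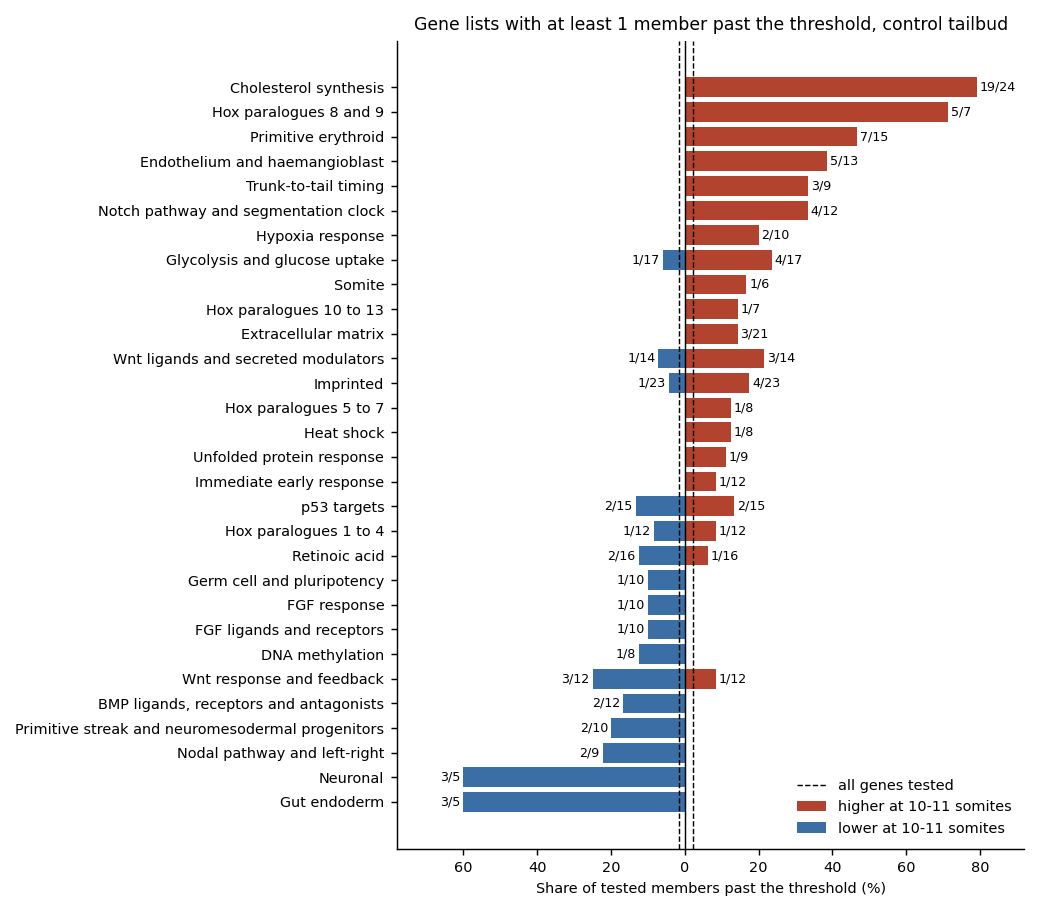
Share of the tested members of each gene list that passed the adjusted threshold in the control embryos, to the right where higher at 10-11 somites and to the left where lower, with counts at the bars. Lists with at least 5 tested members and at least 1 call are shown. Dashed lines mark the shares among all genes tested (2.23% higher and 1.55% lower). The cholesterol list reached 19 of 24 and the list of Hox paralogues 8 and 9 reached 5 of 7.

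Cholesterol is built from acetyl-CoA through mevalonate, isoprenoid units, squalene and a series of sterols, and the transcription factor Srebf2 drives the genes of these steps when sterol runs low. Of the 24 list genes, all of which were tested, 19 rose and none fell, with a median log2 fold change of 0.63 over the list against -0.004 over all genes tested. Genes that rose lay near the entry of the pathway, at the squalene step and among the sterol steps, though not at every step. Near the entry, Hmgcs1, which makes HMG-CoA, read 141, 178 and 217 CPM (lowest, median and highest) in the early embryos and 184, 345 and 446 CPM in the late embryos (log2 fold change 0.88 ± 0.15 SE, adjusted p = 0.00276). Only the late embryo of replicate 1 at 10 somites lay within the early range.

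At the squalene step, Sqle, the epoxidase, read 71.1, 83.2 and 95.7 CPM early and 116, 145 and 163 CPM late, so that every late embryo lay above every early one (0.73 ± 0.09, adjusted p = 0.000166). The groups were equally separate for Cyp51, the lanosterol demethylase, at 76.2, 89.4 and 107 CPM early and 128, 179 and 220 CPM late (0.95 ± 0.11, adjusted p = 0.000166). Over all genes tested, every late embryo lay above every early embryo for 0.572%. Msmo1, the next demethylase of the route, had the largest fold of the list, from 25.7, 41.0 and 60.9 to 56.3, 99.7 and 125 CPM (1.25 ± 0.18, adjusted p = 0.000791), with a narrow overlap of the groups. Insig1, the sterol-sensing protein that holds Srebf2 in the endoplasmic reticulum and is itself a target of it, was separate between groups at 20.9, 27.9 and 46.3 against 49.0, 62.2 and 85.5 CPM (1.12 ± 0.16, adjusted p = 0.000791).

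The 5 members that missed the threshold were Mvk, Pmvk, Tm7sf2, Hsd17b7 and Ebp, with log2 fold changes of 0.07 to 0.25. Leaving out any 1 embryo left 18 or 19 members called, and with the visceral endoderm sum as a covariate 13 were called. Against 7 somites only, with 4 early embryos, 4 genes of the whole table were higher, so that no more than 4 of the 19 could stay called. Mean levels for each somite number, in order from the youngest embryos to the oldest, were 174, 176, 190, 294, 284 and 379 CPM for Hmgcs1. The means of Msmo1 (37.0, 44.1, 43.3, 74.7, 79.0 and 112 CPM) and Insig1 (28.1, 29.5, 27.5, 53.7, 58.2 and 66.3 CPM) had the same low values up to 8 somites and high values from 9 somites. In the maternally deleted embryos 14 of 24 members rose and none fell, with a median of 0.58. There Msmo1 changed by 1.30 (adjusted p = 0.00351), Insig1 by 1.28 (adjusted p = 0.000844) and Cyp51 by 0.95 (adjusted p = 0.0024).

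**Figure D2:**
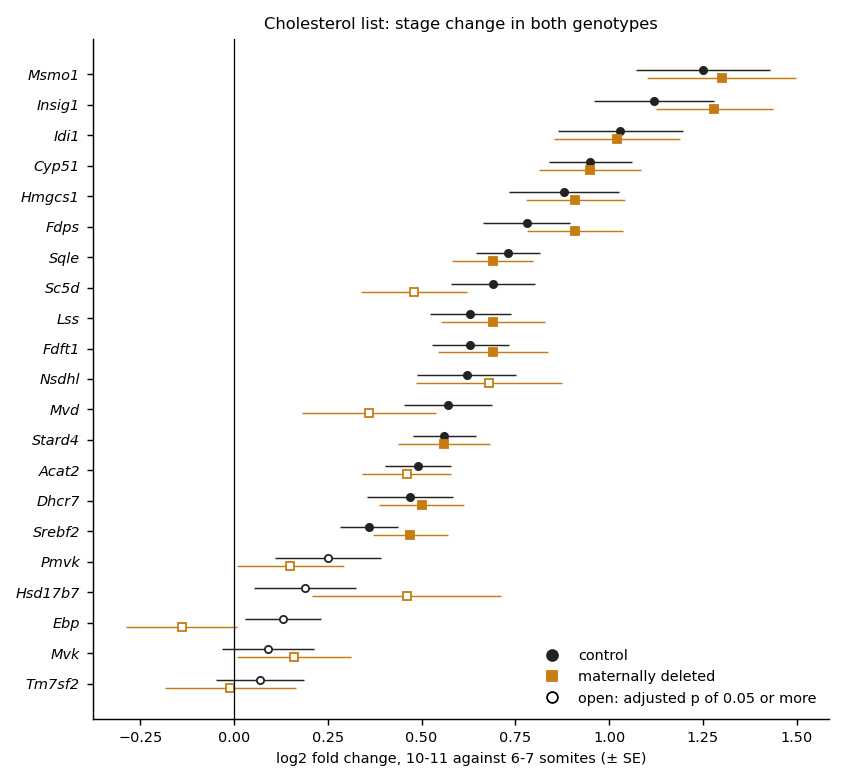
Log2 fold change with its standard error between 10-11 and 6-7 somites for 21 of the 24 cholesterol list genes, in control embryos (black circles) and maternally deleted embryos (orange squares), filled where the adjusted p was under 0.05. All 21 control values lie above 0, from 0.07 for Tm7sf2 to 1.25 for Msmo1, and the maternally deleted values lie near them for most genes.

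The promoters of cholesterol genes are known to carry CCAAT boxes, bound by NF-Y, beside sterol regulatory elements bound by Srebf2. RefSeq promoter windows (GRCm38.p6, 250 bases before to 50 after the start) were at hand for 17 of the 24 genes. The letters CCAAT or their complement ATTGG stood in 16 of the 17 windows (94.1%), against 43.1% of the 10602 tested genes with a window and 41.1% of all 27025 genes of the table. The letters TCACNCCAC, on either strand, stood in 1 of the 17 (5.88%) against 1.42% of the tested genes. The 220 bases before the RefSeq start are printed for the 5 members with the largest fold change that had a window, since these show how the boxes sit in the promoters of the members that rose most. Capitals mark CCAAT or ATTGG and, in Hmgcs1 only, TCACNCCAC. The RefSeq start can lie inside the gene as counted, whose coordinates begin further out, so that 214 of the printed bases of Msmo1, 105 of Idi1 and 49 each of Insig1 and Cyp51 lie within that gene, and none of Hmgcs1. The 2 motifs do not overlap, and a match is a run of letters and not a measured site.
Msmo1 (GRCm38.p6, chr8:64733579-64733798, minus strand): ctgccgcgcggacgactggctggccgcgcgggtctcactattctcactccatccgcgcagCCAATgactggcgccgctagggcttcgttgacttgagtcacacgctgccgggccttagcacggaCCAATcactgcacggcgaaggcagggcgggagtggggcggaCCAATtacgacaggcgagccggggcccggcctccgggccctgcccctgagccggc
Insig1 (GRCm38.p6, chr5:28071192-28071411, plus strand): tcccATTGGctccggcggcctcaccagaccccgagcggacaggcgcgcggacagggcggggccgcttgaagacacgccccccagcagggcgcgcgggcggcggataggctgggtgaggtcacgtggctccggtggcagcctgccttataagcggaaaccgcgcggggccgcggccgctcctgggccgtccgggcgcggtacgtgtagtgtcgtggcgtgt
Idi1 (GRCm38.p6, chr13:8885386-8885605, plus strand): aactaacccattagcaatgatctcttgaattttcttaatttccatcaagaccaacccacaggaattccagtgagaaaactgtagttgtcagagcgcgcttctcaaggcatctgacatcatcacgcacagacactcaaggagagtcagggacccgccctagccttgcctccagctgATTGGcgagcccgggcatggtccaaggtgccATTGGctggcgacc
Cyp51 (GRCm38.p6, chr5:4104698-4104917, minus strand): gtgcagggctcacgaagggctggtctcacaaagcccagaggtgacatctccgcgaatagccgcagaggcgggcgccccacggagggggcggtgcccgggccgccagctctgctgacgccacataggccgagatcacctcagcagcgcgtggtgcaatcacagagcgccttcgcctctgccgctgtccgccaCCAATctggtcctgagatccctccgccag
Hmgcs1 (GRCm38.p6, chr13:119690131-119690350, plus strand): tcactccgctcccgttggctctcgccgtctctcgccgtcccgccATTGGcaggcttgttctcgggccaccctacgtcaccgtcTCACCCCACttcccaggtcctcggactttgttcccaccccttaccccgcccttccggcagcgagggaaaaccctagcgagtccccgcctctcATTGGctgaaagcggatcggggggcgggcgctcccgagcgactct
The 220 bases of Msmo1 hold 3 CCAAT boxes, those of Idi1 and Hmgcs1 2 each, and those of Insig1 and Cyp51 1 each.

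Among the Hox genes, the transcription factors that set position along the axis, change was concentrated in the trunk paralogues. In groups 8 and 9, 5 of 7 genes rose, each in all 15 fits that left out 1 embryo. Hoxc9 had the largest change, from 10.7, 17.2 and 29.5 CPM early to 32.2, 55.6 and 73.5 CPM late (1.51 ± 0.21, adjusted p = 0.000571), and Hoxa9 went from 64.4, 71.0 and 138 to 140, 195 and 227 CPM (1.14 ± 0.16, adjusted p = 0.000791). For both, every late embryo lay above every early embryo. Hoxd8 rose by 1.15 ± 0.17 (adjusted p = 0.00108), Hoxd9 by 0.63 ± 0.14 (adjusted p = 0.0138) and Hoxc8 by 0.62 ± 0.14 (adjusted p = 0.0171). The 2 members of the HoxB cluster had negative values that did not pass, -0.31 for Hoxb8 (adjusted p = 0.096) and -0.10 for Hoxb9 (adjusted p = 0.65). DESeq2 called 5 of the 7 genes higher and 1 lower. With the visceral endoderm sum as a covariate 3 were higher and 1 was lower.

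In groups 5 to 7, Hoxc6 was the 1 gene of 8 that rose, from 30.0, 35.7 and 64.2 to 57.7, 70.2 and 79.8 CPM (0.82 ± 0.14, adjusted p = 0.0028). The count was 3 higher and 1 lower without replicate 1 at 10 somites, 3 higher without replicate 2 at 7 somites, 1 lower beside the 1 higher without replicate 4 at 6 somites, and 4 higher in females only. In groups 1 to 4, 1 of 12 tested genes was higher and 1 was lower, and the lower gene is not reported here. Hoxd3 rose by 0.51 ± 0.09 (adjusted p = 0.00471), but 53.1% of its exonic bases are shared with Gm28230 on the same strand, so that its counts are uncertain. In groups 10 to 13, 7 of 12 genes passed the filter on low counts and 1 rose. Hoxc10 was at 0 to 6.60 CPM early (median 4.14) and 5.58 to 20.4 CPM late (median 12.8), a change of 1.81 ± 0.44 (adjusted p = 0.0289) that was lost in 6 of the 15 fits without 1 embryo.

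**Figure D3:**
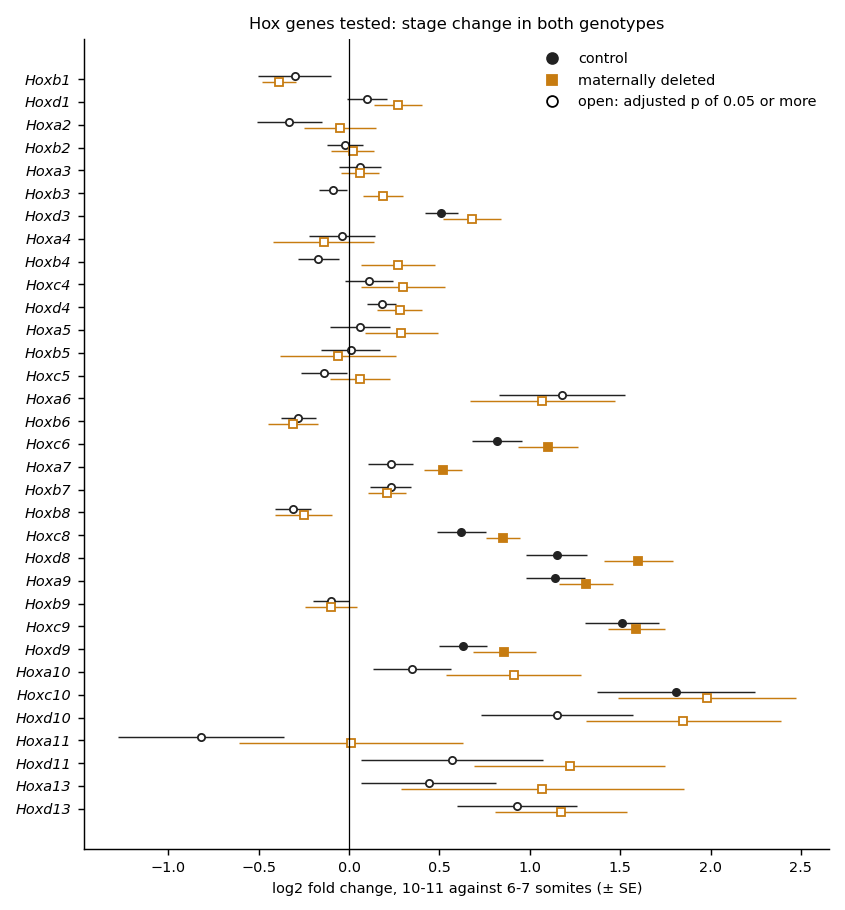
Log2 fold change with its standard error between 10-11 and 6-7 somites for 33 of the tested Hox genes, ordered from paralogue 1 at the top to 13 at the bottom, in control (black circles) and maternally deleted embryos (orange squares), filled where the adjusted p was under 0.05. The filled points drawn, all to the right of 0, lie mostly in groups 8 and 9, with Hoxc9 at 1.51 in the controls. A gene of groups 1 to 4 that was lower is not drawn.

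In the maternally deleted embryos the same 5 genes of groups 8 and 9 were the ones that rose, Hoxc9 by 1.59 (adjusted p = 0.000284) and Hoxd8 by 1.60 (adjusted p = 0.000844), and Hoxc6 rose by 1.1 (adjusted p = 0.00366). The difference of the stage change between genotypes was not past the threshold for any of 15521 genes by edgeR or by DESeq2 (256, or 1.65%, at an unadjusted p under 0.05). Of the 323 control genes that rose, 321 had the same sign in the maternally deleted embryos and 90 (27.9%) passed the threshold there in the same direction, with medians of 0.59 and 0.56. Of the 225 that fell, 223 were tested, 220 had the same sign and 39 (17.5%) passed, with medians of -0.74 and -0.53. No gene was called in opposite directions, and in the maternally deleted fit as a whole 106 of 14990 genes rose (0.707%) and 56 fell (0.374%), with 10.8% past an unadjusted p of 0.05.

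Genes that time the passage from trunk to tail included 3 of 9 that rose. Gdf11 went from 38.8, 57.1 and 82.1 CPM early to 58.4, 108 and 162 CPM late (0.93 ± 0.19, adjusted p = 0.00934), and replicate 1 at 10 somites was the 1 late embryo within the early range. Tgfbr1, the type I receptor that Gdf11 can use, rose by 0.38 ± 0.09 (adjusted p = 0.0291) and the proto-oncogene Mycn by 0.28 ± 0.07 (adjusted p = 0.0401), a call that held in 5 of the 15 fits without 1 embryo. The count of 3 was 1 in 6 of these fits (without replicate 4 at 10, 1 or 3 at 11, 1 at 6, or 1 or 4 at 7 somites) and 4 without replicate 1 at 10 somites, and with the visceral endoderm sum as a covariate 0 were higher and 1 was lower. Lin28a and Lin28b, RNA-binding proteins that block let-7 and prolong trunk growth, had changes of -0.09 (adjusted p = 0.459) and -0.20 (adjusted p = 0.43).

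Of the 12 tested genes of the Notch pathway and clock, 4 rose and none fell, and all 4 are known targets of Notch. Nrarp, a feedback inhibitor of Notch, went from 33.4, 44.5 and 63.6 to 57.0, 94.4 and 184 CPM (1.14 ± 0.19, adjusted p = 0.00291), though 79.4% of its exonic bases are shared with Gm38287 on the opposite strand. Hey2 rose by 0.85 ± 0.16 (adjusted p = 0.00503), Hey1 by 0.56 ± 0.13 (adjusted p = 0.0224) and Hes1 by 0.50 ± 0.12 (adjusted p = 0.0242). The oscillating clock genes Hes7 (0.16, adjusted p = 0.774) and Lfng (0.50, adjusted p = 0.301) did not pass, and their late embryos ranged widely, from 23.5 to 71.3 CPM and from 12.9 to 52.9 CPM. The number of Notch genes called was 2 without replicate 4 at 10 somites, 6 without replicate 1 at 10 somites and 1 with the visceral endoderm sum as a covariate.

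Wnt genes moved in both directions. Of 14 ligands, secreted modulators and Frizzled receptors 3 rose and 1 fell, and without replicate 1 at 10 somites 6 rose and 1 fell. Among them, Wnt5a, a non-canonical ligand of the tailbud, rose by 0.53 ± 0.14 (adjusted p = 0.0408, held in 4 of 15 fits without 1 embryo) and the secreted antagonist Sfrp2 by 0.59 ± 0.10 (adjusted p = 0.00349). The receptor Fzd2 rose by 0.51 ± 0.10 (adjusted p = 0.00997), against a change of -0.04 in the maternally deleted embryos. Wnt8a, a ligand of the primitive streak, fell from 3.64, 10.9 and 19.5 to 3.04, 5.53 and 6.69 CPM (-1.27 ± 0.27, adjusted p = 0.0138), and its mean was 16.1 CPM at 6 somites and 8.32 CPM at 7. Of 12 response and feedback genes 3 fell. Notum, an enzyme that inactivates Wnt ligands, went from 40.7, 50.6 and 58.2 to 19.3, 27.7 and 38.7 CPM with no overlap (-0.85 ± 0.12, adjusted p = 0.000571). For 29.4% of its exonic bases Notum overlaps Notumos on the opposite strand. Sp5, a direct Wnt target, fell by 0.72 ± 0.18 (adjusted p = 0.0319) and the feedback inhibitor Nkd1 by 0.46 ± 0.09 (adjusted p = 0.0112), while its relative Nkd2 rose by 0.59 ± 0.14 (adjusted p = 0.0225). In the maternally deleted embryos 1 of these 12 genes was higher and 0 were lower. For the control embryos, the number called higher was 0 in 3 of the 15 fits without 1 embryo. It was 2, with 3 lower, without replicate 1 at 10 somites, and 0, with 4 lower, with the visceral endoderm sum as a covariate. Wnt3a, the canonical ligand of the progenitors, had a change of -0.13 (adjusted p = 0.668) and Axin2, the general feedback gene, of -0.33 (adjusted p = 0.223).

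FGF signalling was represented by 1 fall in each of its lists. Without replicate 1 at 10 somites, 2 of 10 ligands and receptors were higher and 3 lower, and 1 response gene was higher and 1 lower. Etv4, an ETS factor induced by FGF, went from 114, 151 and 170 to 65.8, 94.9 and 116 CPM (-0.67 ± 0.09, adjusted p = 0.000791), and Fgf15 from 20.2, 25.5 and 28.8 to 6.27, 15 and 21.1 CPM (-0.84 ± 0.15, adjusted p = 0.00503). The other early-response genes of the list did not pass, among them Dusp6 (0.21, adjusted p = 0.42) and Dusp4 (-0.02, adjusted p = 0.974). In the retinoic acid list, Cyp26a1, the enzyme that clears retinoic acid from the tailbud, rose by 0.74 ± 0.20 (adjusted p = 0.0431) in a call that held in 5 of the 15 fits without 1 embryo. Its receptor partner Rxrg fell from 2.65, 7.06 and 10.7 to 0.71, 1.01 and 2.12 CPM with no overlap (-2.47 ± 0.29, adjusted p = 0.000166). The synthetic enzyme Aldh1a2 had a change of -0.41 (adjusted p = 0.526).

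In the Nodal list, Cfc1 (Cryptic), the co-receptor of Nodal in left-right patterning, had one of the smallest p values of all genes. It read 5.96, 8.23 and 13.9 CPM early and 0.789, 1.5 and 2.96 CPM late (-2.59 ± 0.25, adjusted p = 3.55e-05). Foxh1, the DNA-binding partner of activated Smads, read 11.6, 19.6 and 28.9 CPM early and 2.67, 5.75 and 10.9 CPM late (-1.76 ± 0.24, adjusted p = 0.000628). Neither gene overlapped between groups, which was so in this direction for 0.345% of all genes tested. Prss40 on the opposite strand shares 27.8% of the exonic bases of Cfc1. Nodal itself was at or below 2.17 CPM and not tested. In the BMP list, follistatin (Fst), an antagonist of activins and BMPs, fell by 2.71 ± 0.46 (adjusted p = 0.00282), and its early values were spread from 5.96 to 182 CPM around a median of 35.1 against 6.15 to 9.63 CPM late. Bmp5 fell by 0.50 ± 0.14 (adjusted p = 0.0496) with 46.7% of its exonic bases shared with an antisense gene. The Bmp5 call held in 4 of the 15 fits without 1 embryo. None of 9 BMP response genes and none of 6 Hedgehog response genes was called by edgeR or DESeq2 (4 and 1 at an unadjusted p under 0.05).

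**Figure D4:**
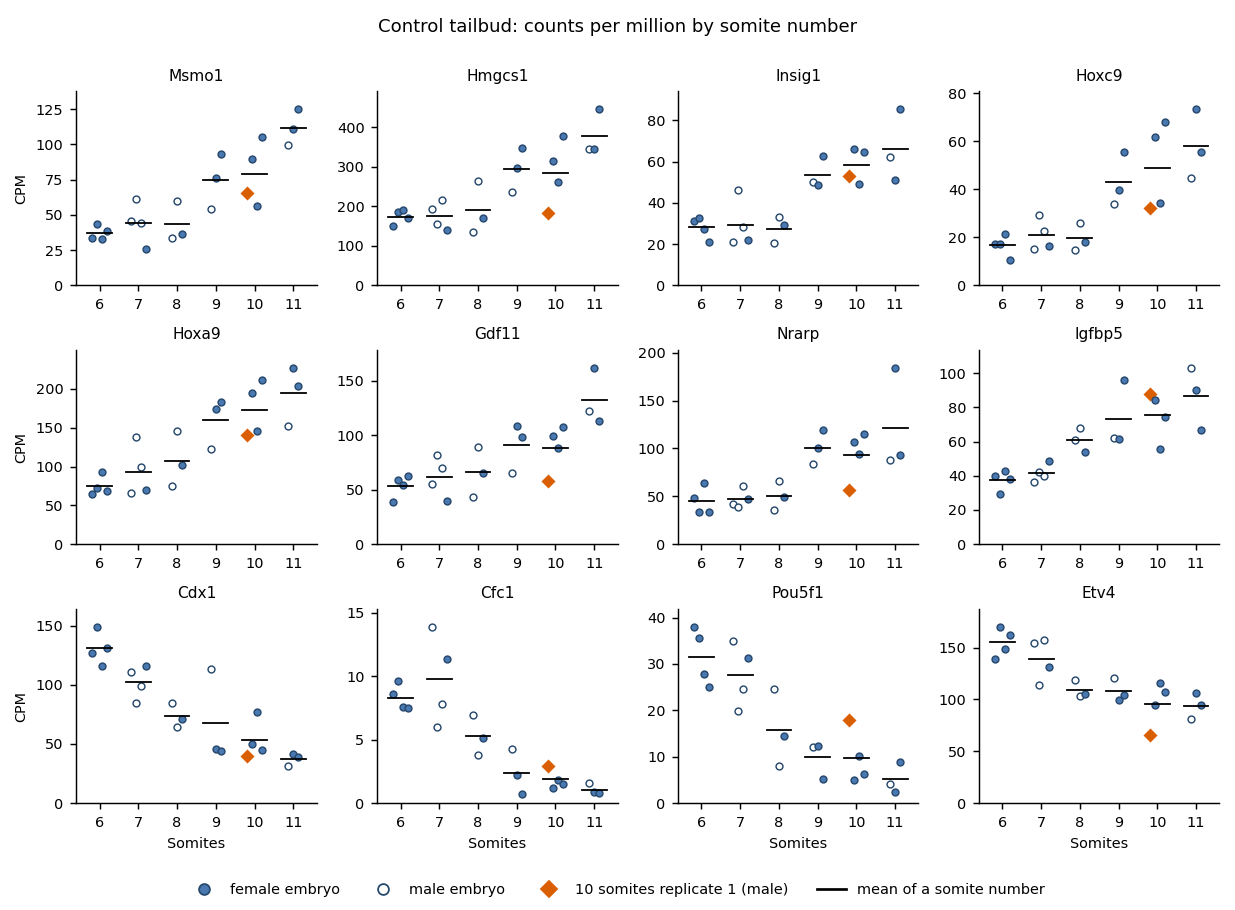
CPM of 12 genes in each of the 21 control embryos against somite number, with filled circles for females, open circles for males, an orange diamond for replicate 1 at 10 somites and a line for the mean of each somite number. The 4 cholesterol, Hox and Notch genes Msmo1, Hmgcs1, Hoxc9 and Nrarp have low means up to 8 somites (43.3, 190, 19.6 and 50 CPM at 8 somites) and higher means from 9 somites (74.7, 294, 43.0 and 101 CPM at 9), and Cdx1, Cfc1 and Pou5f1 are lower at each later window.

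Of 10 tested streak and neuromesodermal progenitor genes, 2 fell. DESeq2 called 3 lower, and 6 were lower with the visceral endoderm sum as a covariate. Cdx1, a caudal-type regulator of Hox genes, read 84.4, 116 and 149 CPM early and 31.1, 41.4 and 76.9 CPM late (-1.38 ± 0.13, adjusted p = 3.55e-05), with stage means of 131, 103, 73.4, 67.7, 52.9 and 37.1 CPM in somite order. Nkx1-2, a marker of the caudal progenitors, fell by 0.49 ± 0.12 (adjusted p = 0.025), and its call was lost in 3 of the 15 fits without 1 embryo. The related Cdx2 and Cdx4 both had changes of -0.20 (adjusted p = 0.304 and 0.487), and T and Sox2 had changes of -0.23 and -0.04 (adjusted p = 0.565 and 0.934). Pou5f1 (Oct4), which persists in the caudal epiblast after gastrulation, read 19.9, 29.6 and 38.0 CPM early and 2.37, 6.21 and 17.9 CPM late with no overlap (-1.98 ± 0.31, adjusted p = 0.00164). Zscan10, a zinc finger factor of pluripotent cells, fell by 0.95 ± 0.11 (adjusted p = 0.000166), and the methyltransferase Dnmt3b by 0.42 ± 0.08 (adjusted p = 0.00946), while Dnmt3a had a change of 0.21 (adjusted p = 0.125).

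The presomitic mesoderm list had 0 of 8 tested members called, with Tbx6 at -0.13 (adjusted p = 0.795) and Msgn1 at -0.14 (adjusted p = 0.796). It had 2 higher and 1 lower without replicate 1 at 10 somites. At an unadjusted p under 0.05, 1 of the 8 was lower, and DESeq2 called 1 lower. In the somite list, Foxc1, a forkhead factor of paraxial mesoderm, rose from 7.80, 9.14 and 13.4 to 9.23, 21 and 25.3 CPM (1.01 ± 0.18, adjusted p = 0.00367), and it was the 1 of 6 tested members called. In the maternally deleted embryos Foxc1 had a change of 0.45 (adjusted p = 0.619). Its control call held in all 15 fits without 1 embryo and was lost with the visceral endoderm sum as a covariate. In the neuronal list 3 of 5 tested genes fell. The neurofilament gene Nefm went from 13.2, 21.9 and 25.6 to 5.14, 8.99 and 10.7 CPM (-1.37 ± 0.15, adjusted p = 0.000115) and the tubulin Tubb3 from 15.5, 20.4 and 24.3 to 8.84, 13.3 and 15 CPM (-0.75 ± 0.14, adjusted p = 0.00471). Nefl fell by 0.99 ± 0.13 (adjusted p = 0.000307), but it lies opposite Nefm with 32.8% of its exonic bases shared, so that reads of the pair cannot be told apart without strand. None of 12 tested neural plate and tube genes was called by edgeR or DESeq2, and 4 were higher at an unadjusted p under 0.05. Without replicate 1 at 10 somites 2 of 13 were higher, as were 3 of 7 node and notochord genes, of which none was called with it (3 higher at an unadjusted p under 0.05, and 0 by DESeq2).

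Markers of blood and vessels rose with stage. The primitive erythroid list had 7 of 15 tested members higher and 0 lower, with a median of 1.60. Hbb-y, an embryonic globin, read 0.818, 6.62 and 201 CPM early and 24.7, 250 and 697 CPM late (4.18 ± 0.80, adjusted p = 0.00682). Hbb-bh1, another embryonic globin, read 5.66, 57.7 and 824 CPM early and 55.6, 439 and 2320 CPM late (2.90 ± 0.70, adjusted p = 0.0289). The Hbb-y groups overlapped only through replicate 2 at 7 somites, whose erythroid list summed to 1630 CPM against 60.4 to 193 in the other early embryos, and for Hbb-bh1 the lowest late embryo also lay among the early values. The red cell anion exchanger Slc4a1 rose by 3.60 ± 0.85 (adjusted p = 0.024), and the erythroid regulators Gata1 and Klf1 by 2.85 ± 0.66 and 2.84 ± 0.66 (adjusted p = 0.022 and 0.0231). Globin genes share near-identical stretches, so that their counts may be split among copies. The number of list members called ran from 3 (without replicate 2 at 10 somites) to 8 (without replicate 1 at 10 somites) when 1 embryo was left out.

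Of 13 endothelial genes 5 rose, a count that was 3 in 6 of the 15 fits without 1 embryo (without replicate 2 or 4 at 10, 3 at 11, 1 or 4 at 6, or 1 at 7 somites) and 5 without replicate 1 at 10 somites. Emcn (endomucin), of vessel linings, read 0, 0.369 and 1.64 CPM early and 2.13, 4.86 and 10.2 CPM late with no overlap (2.78 ± 0.50, adjusted p = 0.00461). Cdh5, the VE-cadherin of endothelial junctions, rose by 0.68 ± 0.14 (adjusted p = 0.00946), the adhesion molecule Esam by 0.78 ± 0.15 (adjusted p = 0.00789), the receptor Tie1 by 0.73 ± 0.18 (adjusted p = 0.0289) and the tight junction protein Cldn5 by 1.23 (adjusted p = 0.0291). Kdr, which marks the haemangioblast before it commits, had a change of -0.09 (adjusted p = 0.805). Gja5 (connexin 40), a gap junction gene of arteries that was among the 12 rising genes with the smallest p, read 2.74, 5.31 and 9.88 CPM early and 11.7, 15.1 and 21.7 CPM late (1.51 ± 0.21, adjusted p = 0.000571). How far this RNA came from vessels and blood within the cut piece or from outside it was not tested.

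**Figure D5:**
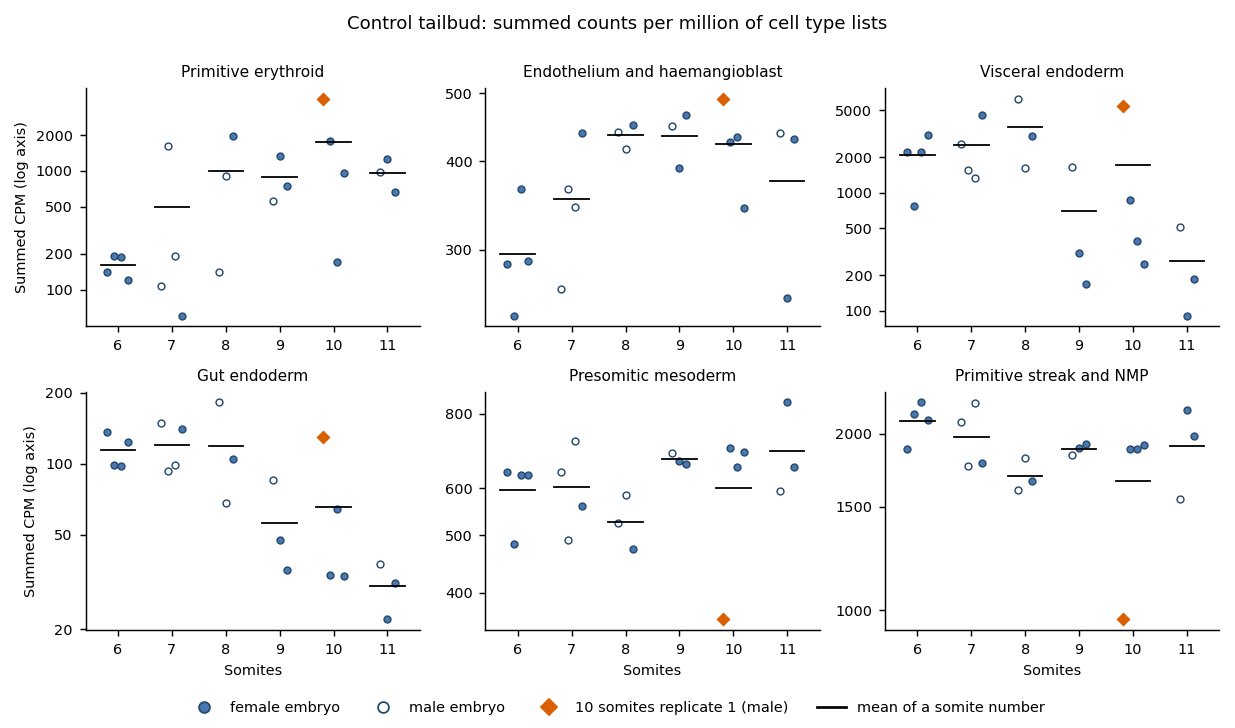
Summed CPM of the members of 6 cell type lists in each of the 21 control embryos against somite number, on log axes, with filled circles for females, open circles for males, an orange diamond for replicate 1 at 10 somites and a line for the mean of each somite number (NMP, neuromesodermal progenitors). The diamond lies at 5360 CPM for visceral endoderm and 4070 CPM for erythroid genes and is the lowest point for presomitic mesoderm (361 CPM) and progenitors (966 CPM).

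Endoderm lists went the other way. The 14 tested visceral endoderm genes all had negative values with a median of -1.73, and none passed the threshold in edgeR or DESeq2 (8 of 14 lower at an unadjusted p under 0.05). Afp, the fetal alpha-fetoprotein, read 75.1, 242 and 650 CPM early and 1.64, 47.8 and 506 CPM late (-1.49 ± 0.74, adjusted p = 0.305), and Apoa1 read 67.3, 206 and 469 CPM early and 0.547, 29.6 and 712 CPM late (-1.91 ± 0.94, adjusted p = 0.3). The high late value was replicate 1 at 10 somites in both. Without that library all 14 were lower and past the threshold, with a median of -2.94. In the maternally deleted embryos none of 14 was called and the median was -0.88. Of 5 tested gut endoderm genes 3 fell, namely Trh, from 2.65, 8.63 and 17.1 to 0.828, 2.53 and 5.46 CPM (-1.87 ± 0.35, adjusted p = 0.00578), Nepn, from 16.5, 23.0 and 35.9 to 0.547, 4.97 and 19.8 CPM (-1.89 ± 0.49, adjusted p = 0.0368), and Cpn1, from 15.2, 20.5 and 27.7 to 9.26, 12.4 and 16.7 CPM (-0.72 ± 0.15, adjusted p = 0.0117). Without replicate 1 at 10 somites all 5 tested members fell. With the summed visceral endoderm level as a covariate, 248 genes were higher and 205 lower over the whole table, and 1 gut endoderm gene was called.

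Of 17 glycolysis and glucose uptake genes 4 rose, namely Tpi1 by 0.30 ± 0.07 (adjusted p = 0.017), Pfkl by 0.34 ± 0.08 (adjusted p = 0.025), the lactate exporter Slc16a3 by 0.30 ± 0.07 (adjusted p = 0.0308) and Pgk1 by 0.34 ± 0.08 (adjusted p = 0.0319). The count of 4 ran from 1 (without replicate 2 at 10 somites, among others) to 7 (without replicate 1 at 10 somites), moved down by over 1.5 times in 8 of the 15 fits without 1 embryo, and was 1 with the visceral endoderm sum as a covariate. The glucose transporter Slc2a3 fell from 1950, 2270 and 2820 to 1450, 1650 and 2310 CPM (-0.44 ± 0.10, adjusted p = 0.0221), and Slc2a1 had a change of -0.40 (adjusted p = 0.0632). Slc2a3 was the 1 list member called lower. The number called lower was 0 in 5 of the 15 fits without 1 embryo and 2 without replicate 1 at 10 somites. With the visceral endoderm sum as a covariate it was 0. Pgm1, a gene named for phosphoglucomutase, had the smallest p of the rising genes named by p, with 26.1, 32.9 and 42.7 CPM early and 55.2, 59.9 and 64.3 CPM late (0.86 ± 0.09, adjusted p = 0.000115). In the hypoxia list Pdk1, the kinase that holds pyruvate back from mitochondria, rose by 0.76 ± 0.09 with no overlap of the groups (adjusted p = 0.000182), and the mitophagy gene Bnip3 by 0.40 ± 0.10 (adjusted p = 0.0285), whereas Vegfa had a change of 0.27 (adjusted p = 0.281). The Bnip3 call held in 7 of the 15 fits without 1 embryo. Ldhb, the lactate dehydrogenase subunit that favours pyruvate, fell by 0.86 ± 0.10 with no overlap (adjusted p = 0.000166).

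Igfbp5, which binds insulin-like growth factors, read 29.5, 39.6 and 48.5 CPM early and 55.9, 84.4 and 103 CPM late (1.02 ± 0.12, adjusted p = 0.000166), and Btg2, an antiproliferative p53 target, 17.7, 20.4 and 26.8 CPM early and 32.5, 48.0 and 80.3 CPM late (1.15 ± 0.16, adjusted p = 0.000571). Neither overlapped between groups. Of 15 p53 targets, Perp also rose by 0.56 ± 0.13 (adjusted p = 0.0251), and Cdkn1a and Phlda3 fell by 0.50 ± 0.13 and 0.69 ± 0.19 (adjusted p = 0.0341 and 0.0472), calls that held in 8 and 3 of the 15 fits without 1 embryo. The number of p53 targets called higher, 2 with all embryos, was 1 in 5 of these fits. Of 23 tested imprinted genes 4 rose and 1 fell. Without 1 embryo these counts ran from 1 to 5 higher and from 0 to 4 lower, with the highest of both without replicate 1 at 10 somites, and the number of higher genes moved down by over 1.5 times in 8 of the 15 fits. Plagl1, a zinc finger regulator of the imprinted network, went from 17.8, 25.8 and 35.6 to 38.8, 53.3 and 70.2 CPM (1.03 ± 0.14, adjusted p = 0.000571), and Peg12 rose by 0.47 ± 0.12 (adjusted p = 0.0429, held in 4 of 15 fits) and Gnas by 0.25 ± 0.06 (adjusted p = 0.0295). The growth factor Igf2 rose by 0.47 ± 0.12 (adjusted p = 0.0294, held in 7 of 15 fits) with 62.8% of its exonic bases shared with Gm49394 on the same strand, and Snrpn fell by 0.25 ± 0.07 (adjusted p = 0.0395, held in 3 of 15 fits).

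The matrix list had 3 of 21 tested genes higher, namely Col5a2 by 0.72 ± 0.13 (adjusted p = 0.00387), Fbn2 by 0.64 ± 0.12 (adjusted p = 0.00503) and Col2a1, the cartilage and notochord collagen, by 0.71 ± 0.14 (adjusted p = 0.00873). Its median was -0.09. Sparcl1, a matrix-associated glycoprotein, rose by 1.1 ± 0.15 (adjusted p = 0.000571) and Klhl6 by 1.0 ± 0.13 (adjusted p = 0.000307). The remaining falling genes with the smallest p were Cyfip2, Vrtn, Plcg2, Grsf1, Tcfl5 and Epha1. Vrtn (vertnin), known for its link to vertebral number, read 3.97, 10.6 and 15 CPM early and 1.37, 3.34 and 4.40 CPM late (-1.77 ± 0.22, adjusted p = 0.000274), and Grsf1, an RNA-binding protein, 507, 705 and 823 CPM early and 204, 390 and 459 CPM late (-0.97 ± 0.12, adjusted p = 0.000294). The ephrin receptor Epha1 fell by 0.85 ± 0.11 (adjusted p = 0.000307).

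Some broad programmes had no call over the span. None of 79 cytosolic ribosomal protein genes, 12 mitochondrially encoded genes, 20 G1/S genes, 20 G2/M genes and 23 Polycomb genes passed the threshold of edgeR in either direction (1, 1, 1, 1 and 4 at an unadjusted p under 0.05, and 1 G1/S gene by DESeq2), and their list medians lay between -0.01 and 0.08. Without replicate 1 at 10 somites 2 ribosomal protein genes were lower, 1 G1/S gene was lower, 3 G2/M genes were higher, and 2 Polycomb genes were higher and 1 lower. Ezh2, the main Polycomb methyltransferase, read 254, 281 and 308 CPM early and 214, 285 and 312 CPM late (-0.01 ± 0.07, adjusted p = 0.945).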

How the data were processed

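PolyA RNA from the tailbuds of 37 mouse embryos was sequenced, 1 library per embryo, after preparation with a stranded or a non-stranded TruSeq kit (which library had which is not given in the sources used here). Per the labels and methods, the authors trimmed single-end reads with Trim Galore 0.4.4, mapped them to GRCm38.p6 with HISAT2 2.0.5 and deposited raw counts per gene from SeqMonk. Counting options are not given in the sources used here. The authors' log2 RPKM values for Hox genes and their table of fold changes and p-values between genotypes were not used. Of 35591 table rows, 49 with repeated identifiers were dropped, and 26 names turned into dates were restored from the identifiers.

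Counts were tested with edgeR 4.0.16 (R 4.3.3): filterByExpr with a minimum count of 10, TMM, glmQLFit and glmQLFTest with sex and stage window, Benjamini-Hochberg over all genes, 2-sided. DESeq2 1.42.0, other scalings, filters, covariates and samples were alternatives. Named genes were the 12 rising and 12 falling protein-coding genes with the smallest p at a mean of at least 5 CPM, the 5 genes of any kind with the largest fold in each direction, at the same mean, up to 4 called members of each list in each direction and the first 2 of each list. Other list members with values (Mvk, Pmvk, Tm7sf2, Hsd17b7, Ebp, Cdx2, Cdx4, Hoxb9 and Cldn5) were picked after their values were seen. Some list members and their values are not reported here. Members and lists were chosen with earlier results of these data known. Members of 49 lists were looked up by symbol, and Ahsp had no match. The labels do not tie replicate numbers to litters or days, and correlations of same-numbered embryos ran from -0.468 to 0.412 (6 of 14 over 0.1), so that numbers were not taken as pairs. Embryos may share litters, which the labels do not give, and p-values measure the spread between these embryos.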

Additional observations from a re-analysis of the deposited data

Results flagged for a closer look

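Samples far from the others of their stage were sought by Dixon's gap ratio in 164 groups of 7 or 8 embryos, of which chance flags about 1 in 20, and 28 were found. Of these, 17 lay in replicate 1 at 10 somites. Its summed CPM was below the other late embryos for lists of caudal tissue: 707 for FGF response (others 1230 to 1590), 680 for Wnt ligands and modulators, 824 for Wnt response (others 1310 to 1490), 219 for the Nodal list, 2590 for trunk-to-tail timing, 695 for Hox paralogues 8 and 9 (others 940 to 1110), 966 for streak and progenitor genes, 361 for presomitic mesoderm, 43.3 for segment boundary genes, 24.1 for somite genes and 32.5 for node and notochord genes. It was also low for G1/S genes (4250), G2/M genes (3260), Polycomb genes (1580), DNA methylation genes (1230) and Epha1 (34.2 CPM, others 48.2 to 60.1), and high for epithelial genes (478, others 256 to 325). In the same library the visceral endoderm list summed to 5360 CPM.

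Replicate 2 at 7 somites, the shallowest library at 3061180 counts, was high for the erythroid list (1630 summed CPM) and low for the Nodal list (227, others 258 to 278), Nefm (13.2 CPM), Cyfip2 (23.5 CPM), Vrtn (3.97 CPM) and Epha1 (59.6 CPM). Replicate 1 at 6 somites was high for matrix genes (5690 summed CPM, others 1440 to 1900), the unfolded protein response (6830) and G2/M genes (4640). Vrtn was low in replicate 1 at 11 somites (1.37 CPM) and Tcfl5 high in replicate 3 at 10 somites (20.2 CPM). What sets these embryos apart was not tested.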

How the results depend on the processing

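The 323 genes higher and 225 lower stayed within 1.5 times of these counts under other scalings, filters, no sex term, all 21 control embryos and, added after the data were seen, the visceral endoderm sum as a covariate. Counts higher and lower were 515 and 462 with DESeq2, 636 and 896 in females only, and 175 and 107 with library size as a covariate. Against 6 somites only, 187 were higher and 195 lower, with 4 early embryos that were all female. Against 7 somites only, 4 were higher and 6 lower, with 4 early embryos of which 1 was female. Without 1 embryo at a time the counts ran from 179 to 977 higher and from 108 to 1128 lower. The highest came without replicate 1 at 10 somites, and counts moved by over 1.5 times also without replicate 4 at 10 somites (179 and 108), replicate 3 at 11 somites (207 and 119), replicate 1 at 7 somites (208 and 123), replicate 2 at 11 somites (140 lower) and replicate 4 at 6 somites (143 lower). Replicate numbers are not known to pair embryos, and with a replicate block 278 were higher and 160 lower. The 129 genes called with the same sign in maternally deleted embryos were 257 with DESeq2, 117 with the block and 41 to 160 without 1 embryo, with a move of over 1.5 times without maternally deleted replicate 2 at 11 somites (41), replicate 3 at 10 somites (75) or replicate 1 at 7 somites (85). Genes called for a difference of the stage change between genotypes numbered 0 under every alternative run for it. Of 97 named genes called, 64 kept the call without any 1 embryo and 43 under every alternative but the one against 7 somites. Only 7 kept it under every alternative, that one included. Col1a2 went from -0.02 to 0.54 with the visceral endoderm covariate. The cause of these shifts was not tested. Depth limits genes of a few CPM most in the shallowest control library, at 3061180 counts.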

Other observations

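The heat shock, unfolded protein response and immediate early lists had 1 call each. In the heat shock list Dnajb1, a co-chaperone, read 55.3, 65.9 and 70.8 CPM early (lowest, median and highest) and 77.1, 80.3 and 111 CPM late (log2 fold change 0.43 ± 0.09 SE, adjusted p = 0.0092) and was the 1 of 8 tested members called. Dnajb9, a chaperone of the endoplasmic reticulum, rose by 0.65 ± 0.16 (adjusted p = 0.0331), whereas Hspa5 of the same unfolded protein response list had a change of 0.07 (adjusted p = 0.683). The Dnajb9 call held in 7 of the 15 fits without 1 embryo. Of 12 tested immediate early genes Jun rose by 0.73 ± 0.17 (adjusted p = 0.0237), and Fos stayed at or below 2.35 CPM in these embryos. The number called higher in this list was 0 in 3 of the 15 fits without 1 embryo.

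In the crest list Ets1, an ETS factor that endothelium also expresses, rose from 18.2, 31.9 and 35.7 to 28.0, 48.2 and 64.6 CPM (0.64 ± 0.14, adjusted p = 0.0155), while Sox10 and Foxd3 were at or near 0. In the epithelial list Cdh1 had a change of -0.50 (adjusted p = 0.0904), and of -0.69 (adjusted p = 0.000632) without replicate 1 at 10 somites. The mesenchymal gene Cdh2 had a change of 0.16 (adjusted p = 0.665), and of 0.32 (adjusted p = 0.0086) without that library.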
